A study of Rattus norvegicus with 6 samples.

Results

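The opioid genes described here are the 4 genes that encode opioid peptide precursors (Penk, Pdyn, Pomc and Pnoc) and the 4 that encode their receptors (Oprd1, Oprk1, Oprm1 and Oprl1), represented by 14 of the 30367 non-control probes of a rat expression array. Members were taken by their gene name in the array files. The family was chosen by the difference between the groups on these same arrays, where Penk was among the genes lowest with treatment. All 8 genes are therefore described with no p-value, Pdyn, Oprk1 and Oprl1 by their signals and background status alone. The number of members called in the fit over all genes supports nothing. The arrays hold RNA labelled as whole heart from 3 samples given AACO, a formula of Chinese medicine that the labels name by these letters alone, and from 3 control samples. AACO was given as a solution at 0.386 µg/g, the controls received double-distilled water, both were dosed daily for 8 weeks, and hearts were taken 24 h after the last dose. Both groups had undergone TAC (by common usage transverse aortic constriction, which narrows the aorta and loads the left ventricle), and animals without the operation were not analysed here. The samples are labelled Rattus norvegicus and the probes carry positions in the rat build rn4, whereas the design text names mice; rat was used here. Age, sex and strain are not given in the sources used here. The labels do not say whether each sample was 1 animal, and where samples were not separate animals the p-values below measure only technical spread.

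Opioid peptides are cut from large precursor proteins by prohormone convertases, which cleave at pairs of basic residues. Penk is the precursor of the enkephalins, Pdyn of the dynorphins, Pomc of beta-endorphin along with corticotropin and the melanocortins, and Pnoc of nociceptin. Enkephalins act mainly on the delta receptor (Oprd1) and also on the mu receptor (Oprm1), dynorphins on the kappa receptor (Oprk1), beta-endorphin on mu and delta, and nociceptin on Oprl1. All of these receptors couple to inhibitory G proteins. The rat heart is a known site of Penk transcription outside the nervous system, and enkephalins have been studied there as local modulators of contraction and of sympathetic and vagal input.

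The sequences below are those of the probes that carried a readable signal for the precursors, and of the probe for the enkephalin receptor; they show which stretch of each transcript the values refer to. The Penk probe lies at chr5:17509637-17509696 on the minus strand, the Pomc probe at chr6:26937625-26937684 on the plus strand and the Oprd1 probe at chr5:150979864-150979923 on the minus strand, all in rn4 as the array files place them. Capitals mark, for Penk, the 15 bases whose codons spell met-enkephalin and, for Pomc, the stop codon, after which the probe is not shown.
Penk: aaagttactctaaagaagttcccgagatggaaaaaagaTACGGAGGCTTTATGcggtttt
Pomc: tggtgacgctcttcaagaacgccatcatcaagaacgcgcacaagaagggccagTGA
Oprd1: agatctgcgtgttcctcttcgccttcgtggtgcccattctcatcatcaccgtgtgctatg
The Penk probe therefore reads coding sequence that includes a copy of the met-enkephalin sequence, and the codons just before the capitals encode a pair of basic residues of the kind the convertases cut. The codons just after the capitals encode arginine and phenylalanine, so no such pair directly follows this copy. The Pomc probe reads the end of the coding sequence, the stretch that encodes the end of beta-endorphin. No reference of build rn4 was given, so exons and untranslated regions are not stated for the other probes.

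A spot is called well above background by the scanner software when its signal clears the local background and its noise, and a probe is called so here when at least 50% of its spots are. On this measure the family divided in equal parts. Penk, Pomc and Oprd1, and 1 of the 3 Oprm1 probes, were well above background on all 6 arrays. Those 4 genes passed the filter used for testing, which asks for at least 3 of the 6 arrays. Pdyn and Oprl1 were above background on no array, Oprk1 on 1 and Pnoc on 2, so these 4 genes were not tested and are described by their signals alone. In all 7 of the 14 probes were above background on no array. All values below are log2 processed signals from which the 75th percentile of their own array was subtracted ("scaled log2"), unless a signal in intensity units is named, and levels of different probes are not set against each other because probes differ in how well they bind.

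**Figure D1:**
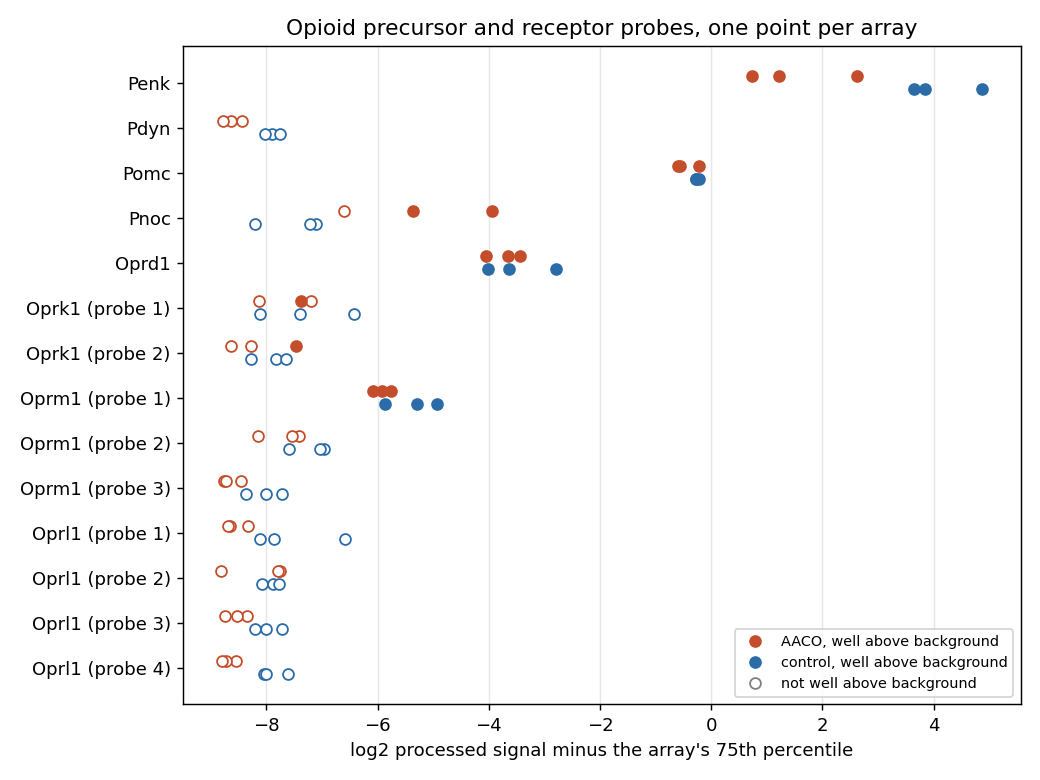
Scaled log2 signal (relative to the 75th percentile of each array, x axis) of the 14 probes for the opioid precursors and receptors, with 1 point per array, AACO in orange above control in blue. Open points were not well above background. Penk is the one tested gene whose groups do not overlap, and Pnoc is filled only on 2 AACO arrays.

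The arrays as a whole set the scale for these values. The share of spots well above background ran from 70.9% to 72.4% with AACO and from 66.0% to 68.7% in the controls, and the median signal from 212 to 261 against 143 to 204. No non-control spot was saturated. All AACO arrays lay on 1 slide and all control arrays on another, scanned on different days, so slide, scan and group cannot be told apart for any difference below. Over the 17536 genes tested, 1108 rose and 867 fell with AACO (limma, adjusted p under 0.05), and the median difference was 0.04 on the log2 scale. Without scaling between arrays 5493 rose and 232 fell, and the median difference was 0.52. With scaling, 5402 of the 17536 genes had an unadjusted limma p under 0.05, which is the share to hold beside such counts below. All 9 markers of ventricular cardiomyocytes fixed for the check of the tissue, Myh6 and Tnnt2 among them, were measured well enough to be tested.

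Penk, the enkephalin precursor, was lower in every AACO sample than in any control sample. Its processed signal was 3951, 3583 and 13245 on AACO replicates 1, 2 and 3, and 51728, 15119 and 19290 on control replicates 1, 2 and 3. After scaling these became 1.22, 0.73 and 2.63 with AACO and 4.88, 3.65 and 3.85 in the controls. The groups did not overlap, with AACO replicate 3 standing nearest to the controls and control replicate 1 farthest above. AACO samples averaged 1.53 ± 0.99 (SD, n = 3) and control samples 4.12 ± 0.66 (SD, n = 3). That is a log2 difference of −2.60 with a standard error of 0.55 from the fit, or 6.05-fold lower with AACO, and 11 of the 17536 genes had a lower difference.

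Within each group the Penk arrays were far apart as well. The highest AACO array stood 3.73-fold above the lowest, and the highest control array 2.35-fold above the lowest. AACO replicate 3 was 3.15-fold above the mean of the other AACO arrays. The closest arrays of the groups, control replicate 2 and AACO replicate 3, were 2.02-fold apart after scaling. Without scaling the same pair differed by 1.14-fold in the same direction, so the gap between the groups at this point depends on the scaling.

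Spots of 1 array differed far less than arrays did. Penk is printed 10 times on each array, and of 60 spots 1 was marked an outlier and left out. Over the spots of an array the coefficient of variation was between 3.66% and 9.75%, and the brightest spot was at most 1.33 times the dimmest. The spots of AACO replicate 1 lay between 3280 and 4373 and those of control replicate 1 between 43979 and 57454. None was saturated.

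**Figure D2:**
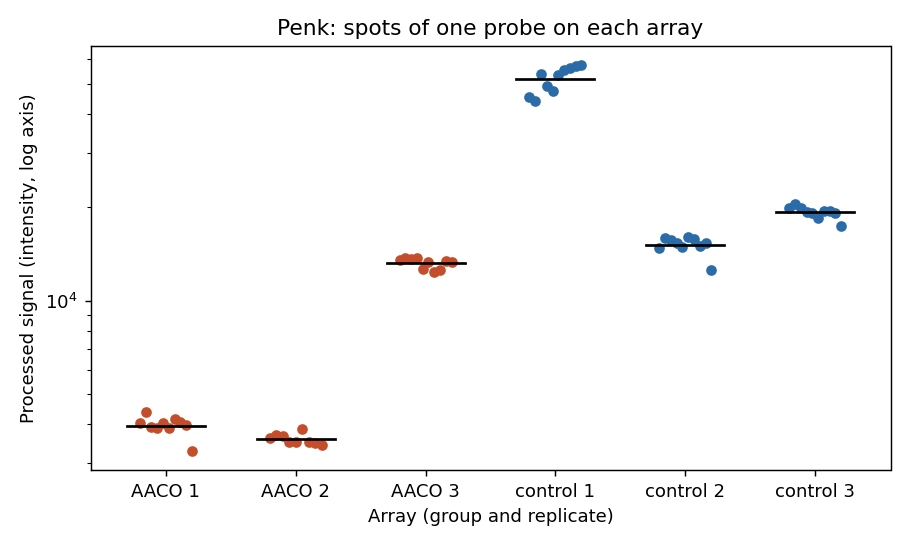
Processed signal of every Penk spot that was used (intensity, log axis) on each of the 6 arrays, AACO in orange and control in blue, with the geometric mean as a black bar. Spots of an array lie close together, while AACO replicates 1 and 2 sit near 3951 and 3583 and control replicate 1 near 51728.

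Among the 4 tested members 1, Penk, was called at a limma adjusted p under 0.05, where 11.3% of all genes tested were called (6.32% as higher and 4.94% as lower with AACO), and Penk was also the 1 whose groups did not overlap, as was so for 37.4% of all genes (15.9% not overlapping and lower with AACO). Since the family was chosen with this comparison known, nothing is read from these counts. The count of 1 fell to 0 when AACO replicate 1, AACO replicate 2, control replicate 1, control replicate 2 or control replicate 3 was left out, and stayed at 1 without AACO replicate 3. The Penk difference in those 6 fits was −2.44, −2.20 and −3.15 without AACO replicates 1, 2 and 3, and −2.22, −2.83 and −2.74 without control replicates 1, 2 and 3. All 4 tested members had a lower mean with AACO, with a median difference of −0.39 against 0.04 over all genes, although the mean of Oprd1 turned higher with AACO without control replicate 2, and those of Pomc and Oprd1 did when arrays were not scaled.

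Pomc, the precursor of beta-endorphin, showed little spread. Its scaled values were −0.55, −0.60 and −0.22 with AACO and −0.22, −0.28 and −0.28 in the controls. AACO replicates 1 and 2 were lower than the controls and AACO replicate 3 was level with them, so the groups overlapped. The means were −0.45 ± 0.21 (SD, n = 3) and −0.26 ± 0.03 (n = 3), a difference of −0.19 ± 0.13 (SE). Without scaling the difference was 0.29, below the median of 0.52 that all genes then had.

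Pnoc, the nociceptin precursor, was read above background only in AACO samples. Its processed signal was 110, 52.6 and 22.0 on AACO replicates 1, 2 and 3 and 5.95, 8.72 and 9.0 on control replicates 1, 2 and 3. Both spots were well above background on AACO replicates 1 and 2, and no spot was on AACO replicate 3 or on any control array. The groups did not overlap, and the scaled means were −5.30 ± 1.33 (SD, n = 3) and −7.51 ± 0.60 (n = 3). Their difference of 2.21 depended on how background was handled: it was 0.65 with normexp background correction. In the other alternatives it lay between 1.53 and 2.86. Because the control level is known only as below background, it was replaced by the lowest signal that counted as well above background on each control array. Against that, the mean of the 3 AACO arrays was 1.41-fold higher, with the probe well above background on 2 of them. AACO replicate 3 entered at its own reading, which was itself not well above background, so this ratio is no firm lower limit. Nor is the replacement signal a ceiling for dim spots. On control replicate 3 it was 29.7, and an Oprk1 spot of 31.1 there was not well above background. The probe lies at chr15:44822650-44822709 on the minus strand of rn4.

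Pdyn, the dynorphin precursor, gave no signal that could be told from background. None of its 12 spots over the 6 arrays was well above background, with processed signals from 4.60 to 7.45. A dynorphin transcript was thus not detectable in these samples with this probe, at chr3:117291061-117291120 on the minus strand of rn4.

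The delta receptor gene Oprd1, which encodes the main receptor of the enkephalins, was above background everywhere and did not separate the groups. Its scaled values were −3.66, −4.05 and −3.44 with AACO and −4.02, −2.79 and −3.64 in the controls. Control replicate 2 was the highest array, and the other control arrays lay within the range of the AACO arrays. The means were −3.72 ± 0.31 (SD, n = 3) and −3.48 ± 0.63 (n = 3), a difference of −0.24 ± 0.33 (SE). This probe has 2 spots on each array, which disagreed by up to 3.72-fold, more than the groups did. Without control replicate 2 the difference turned to 0.11, and in the other fits without 1 array it lay between −0.50 and −0.07. Without scaling it was 0.25, below the median of all genes at 0.52.

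The mu receptor gene Oprm1 is read by 3 probes. The probe designed on transcript variant MOR-1B2, a splice form, was above background on all 6 arrays, while the probe shared by several variants and the probe on transcript variant 1 were above background on none. The processed signal of the MOR-1B2 probe was 27.9, 31.8 and 39.6 on AACO replicates 1, 2 and 3 and 44.8, 39.5 and 22.9 on control replicates 1, 2 and 3, close to the limit of detection. On the scaled values the groups overlapped through control replicate 3, at −5.87. The means were −5.92 ± 0.16 (SD, n = 3) with AACO and −5.37 ± 0.47 (n = 3) in the controls, a difference of −0.55 ± 0.24 (SE). It was −0.19 with normexp background correction and −0.07 without scaling, and lay between −0.81 (without control replicate 3) and −0.34 (without control replicate 2) when 1 array was left out. The probe lies at chr1:37577390-37577449 on the plus strand. That the shared probe, whose listed targets include MOR-1B2, stayed in the background limits what the brighter probe says about Oprm1.

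The kappa receptor gene Oprk1 and the nociceptin receptor gene Oprl1 were close to or at background. Each of the 2 Oprk1 probes was above background on AACO replicate 2 alone, through 1 of its spots, and over all arrays 2 of 24 Oprk1 spots were well above background. Of 83 usable Oprl1 spots from 4 probes, 1 of them printed 10 times, 0 were well above background, and their signals ran from 4.16 to 27.2. Neither gene was detectable at a level that would allow the groups to be compared. The receptor of nociceptin was not detectable on the arrays where its precursor was.

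Other transcripts moved with Penk and Pnoc and are given here as values. AACO replicates 1 and 2, which had the lowest Penk and the highest Pnoc, also had the highest Myl7 and Sln, which encode a myosin light chain and sarcolipin of atrial muscle. Myl7 stood at 4.83 and 6.26 on these arrays, at −1.06 on AACO replicate 3 and between −2.91 and −1.51 on the control arrays. Sln was 1.39 and 3.85 on AACO replicates 1 and 2, −0.41 on AACO replicate 3 and between −1.71 and −0.42 in the controls. The other atrial markers did not follow: Myl4 lay between 6.63 and 6.94 on all arrays, and Nppa was lowest on AACO replicate 1, at 2.80. Of the 4 atrial markers 0 passed in limma (2 had an unadjusted p under 0.05), and their summed level was 152 to 244 with AACO and 145 to 227 in the controls, on a linear scale where the 75th percentile of an array is 1. Myl4 and Nppa made up most of that sum on every array, so it says little about Myl7 and Sln. On AACO replicate 3 Myl7 and Sln were also above every control array, by less than on AACO replicates 1 and 2. Penk on AACO replicate 3 was below all controls by at least 2.02-fold after scaling and 1.14-fold without scaling. Pnoc on that array was not well above background. The part of atrial tissue in the Penk and Pnoc values was not tested.

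**Figure D3:**
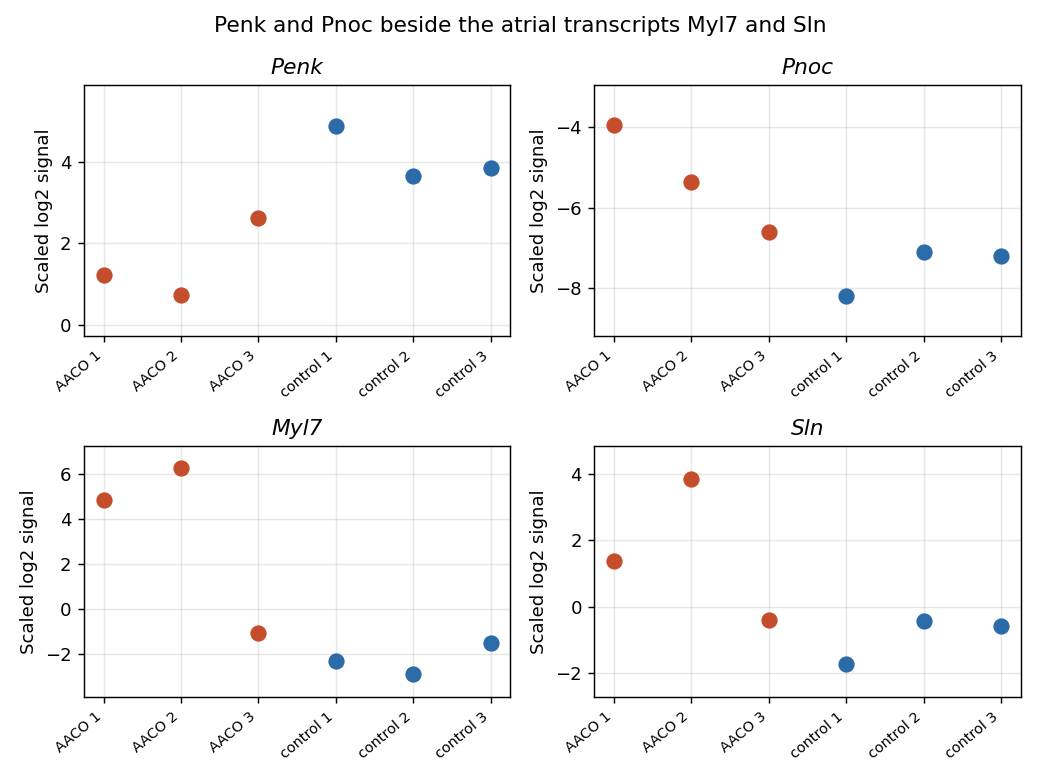
Scaled log2 signal (y axis) of Penk, Pnoc and the atrial transcripts Myl7 and Sln on each of the 6 arrays, AACO in orange and control in blue. AACO replicates 1 and 2 are lowest in Penk and highest in the other genes, and AACO replicate 3 sits nearer the controls, at −1.06 for Myl7.

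Markers of other cells that can make opioid peptides were read alongside. Of all 17536 genes tested, 5402 had an unadjusted limma p under 0.05, so a few such markers in a list are common. Of 11 neuron markers 5 were tested and 1, the tubulin gene Tubb3, fell (−1.02, limma adjusted p = 0.0152), while the other 6, Snap25, Stmn2, Nefl and Nefm among them, were too dim to test. The summed level of the neuron markers was 1.26 to 1.76 with AACO and 1.73 to 1.83 in the controls. Of 5 chromaffin cell markers 3 were tested and 0 passed in limma (0 with an unadjusted p under 0.05), and the granule genes Chga and Chgb were too dim to test. Of 5 tested T cell markers 1 fell, Cd4 (−1.05, limma adjusted p = 0.0189), which macrophages of the rat also carry. Of 6 macrophage markers 5 fell, and their summed level was 0.972 to 1.05 with AACO and 1.84 to 2.29 in the controls. Of 5 Schwann cell markers 1 rose, Sox10 (1.52, limma adjusted p = 0.0451), while all 5 were higher in mean, with a median difference of 1.52, and 4 had an unadjusted p under 0.05. Their summed level was 1.63 to 6.54 against 0.886 to 1.54. In limma 0 of 9 ventricular cardiomyocyte, 0 of 6 fibroblast, 0 of 5 endothelial and 0 of 4 smooth muscle markers passed, where 0, 1, 3 and 4 had an unadjusted p under 0.05, and 1 of 3 tested adipocyte markers fell. The summed level of smooth muscle markers was 4.94 to 7.46 with AACO and 3.22 to 4.54 in the controls. For endothelial markers it was 19.7 to 21.8 against 22.8 to 24.7, and for adipocyte markers 6.26 to 9.61 against 12.5 to 12.9. The ventricular cardiomyocyte and fibroblast sums overlapped between the groups. In pieces of tissue such as these, fewer cells of a type and less RNA per cell cannot be told apart, and the part of these cell types in the Penk values was not tested.

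The pathway around the members was read from 5 lists with 79 genes, of which 61 were tested, 3 rose and 7 fell. That is 16.4% called, against 11.3% of all genes, with a median difference of −0.10 against 0.04. The count leaned on single arrays: of the 61 genes, 1 was called without AACO replicate 1, 1 without AACO replicate 2, 8 without AACO replicate 3, 4 without control replicate 1 and 3 each without control replicate 2 and control replicate 3. The count further depended on the scaling of the arrays: without scaling, which moved the median of all genes to 0.52, Pam and Atf4 stood at −0.02 and Gnai3 at −0.25, with limma adjusted p of 0.947, 0.954 and 0.446. With scaling to the spike-in probes Pam, Atf4, Gnb1, Kcnj3 and Nr3c1 kept their direction but had a limma adjusted p between 0.0713 and 0.146.

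Among genes that process and store peptide precursors, 2 of 11 tested fell and 0 rose (median −0.07). The cathepsin gene Ctsl, a lysosomal protease also found in secretory granules, where it can cut proenkephalin, was 3.77, 4.23 and 4.09 on AACO replicates 1, 2 and 3 and 4.94, 5.10 and 4.98 on the control arrays. It fell by 0.97 ± 0.14 (SE, limma adjusted p = 0.0142), without overlap between the groups, and was called in all 6 fits that left out 1 array, though not without scaling (adjusted p = 0.151). Pam, whose product amidates the ends of peptide hormones, fell by 0.51 ± 0.11 (limma adjusted p = 0.0404), and in the 6 fits without 1 array its adjusted p lay between 0.0510 and 0.116. The convertase gene Pcsk1 and the carboxypeptidase gene Cpe, named for their role after their values were seen, were at −0.06 and 0.07 and did not pass. The convertase gene Pcsk2 and 5 granule genes were too dim to test.

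Among peptidases that break down opioid peptides, 0 of 11 tested passed in limma and 2 had an unadjusted p under 0.05 (median −0.10). That unadjusted level was reached by 5402 of all 17536 genes tested. Nearest were Lnpep, an aminopeptidase of the cell surface, at 0.57 ± 0.18 (limma adjusted p = 0.0848; 0.0468 with spike-in scaling and 0.0037 without scaling), and Ece1, the endothelin-converting enzyme, at −0.29 ± 0.10 (limma adjusted p = 0.0968) with its other probe at 0.47. Mme, the gene of neprilysin (formerly enkephalinase), was at −0.13 and did not pass; it was named for its role after its values were seen.

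Signalling genes downstream of the receptors moved both ways. Of 18 tested genes of Gi and Go signalling and receptor desensitisation 2 rose and 2 fell (median 0.04). Kcnj3 and Kcnj5 encode the subunits of the cardiac potassium channel that Gi-coupled receptors open in pacemaker and atrial cells. Kcnj5 was 0.75 ± 0.18 higher with AACO (limma adjusted p = 0.0475) and Kcnj3 0.50 ± 0.11 higher (limma adjusted p = 0.0364), each with its other probe in the same direction, at 0.50 and 0.69. Gnai3, an inhibitory G protein alpha subunit, fell by 0.74 ± 0.12 (limma adjusted p = 0.0210). Gnb1, a beta subunit, fell by 0.37 ± 0.09 (limma adjusted p = 0.0473) but was at 0.11 without scaling. Leaving out 1 array at a time, Gnai3 was called in 3 of 6 fits, Kcnj3 in 1, Kcnj5 in 1 and Gnb1 in 0, with adjusted p up to 0.0728, 0.124, 0.147 and 0.144. The Kcnj5 call was also lost with quantile normalization (limma adjusted p = 0.0573) and with the authors' deposited values (0.0574). It was lost too with no filter on dim probes (0.0580) and with the mean over its probes (0.0504). The other alternatives that used all 6 arrays kept it. Kcnj3 and Kcnj5 were above every control array on all 3 AACO arrays. On AACO replicate 3 Kcnj5 was 1.52 against at most 1.26 in the controls, and Kcnj3 −0.53 against at most −0.81. Myl7 and Sln on that array, at −1.06 and −0.41, were likewise above their highest control arrays, at −1.51 and −0.42. The part of atrial tissue in the Kcnj3 and Kcnj5 values was not tested.

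Of 7 tested genes for other receptors of opioid and Pomc peptides 1 fell (median −0.26). Mc5r, a receptor for the melanocortins cut from Pomc, was −5.56, −5.59 and −4.87 on AACO replicates 1, 2 and 3 and −3.61, −4.27 and −3.22 on the control arrays. The groups did not overlap, with a difference of −1.64 ± 0.32 (limma adjusted p = 0.0293). It was called in 2 of the 6 fits without 1 array (adjusted p from 0.0238 to 0.107).

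Of 14 tested transcription factors known from other work to act on the Penk or Pdyn promoter, 1 rose and 2 fell (median −0.07). Crem, a relative of CREB that binds cAMP response elements, was −0.87, −0.49 and −0.16 on AACO replicates 1, 2 and 3 and 1.14, 0.91 and 0.45 on the control arrays. It fell by 1.34 ± 0.24 (limma adjusted p = 0.0245), and its 4 other probes had differences from −1.85 to −1.42. Its call was lost without AACO replicate 1 (adjusted p = 0.0778), AACO replicate 2 (0.0896) or control replicate 2 (0.0574). Atf4 fell by 0.51 ± 0.11 (limma adjusted p = 0.0377) and the glucocorticoid receptor gene Nr3c1 was 0.49 ± 0.11 higher (limma adjusted p = 0.0387), each called in 1 of the 6 fits without 1 array, with adjusted p up to 0.120 and 0.126. Fos and Atf3, named after their values were seen, had the widest differences of the list at 2.53 ± 0.94 and −1.76 ± 0.82, with overlapping groups and limma adjusted p of 0.128 and 0.205.

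**Figure D4:**
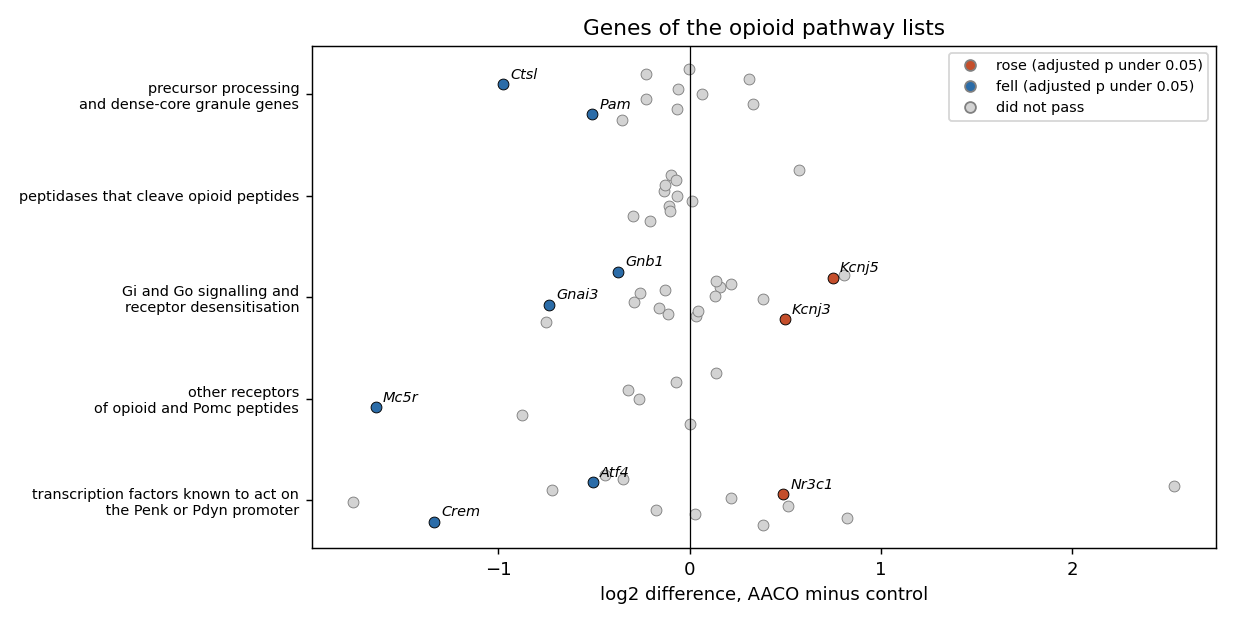
Log2 difference between AACO and control (x axis) for the 61 tested genes of the 5 pathway lists, 1 point per gene. Orange points rose and blue points fell at a limma adjusted p under 0.05, 3 and 7 genes, and grey points did not pass.

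The genes whose levels followed Penk most closely were found by Pearson correlation over the 6 arrays among 13401 other tested genes with a name. The 6 arrays fall into the groups compared, so any gene that differs between them correlates with Penk to some extent: 680 genes had r above 0.9 and 773 below −0.9. The 5 highest were Ghrl, the gene of the appetite hormone ghrelin (r = 0.999), the potassium channel gene Kcnk3 (0.997), the carnitine palmitoyltransferase gene Cpt2 (0.996), Cyp2s1 (0.995) and Gng5, a G protein gamma subunit (0.992). Ghrl stood at −5.01, −5.16 and −4.51 on AACO replicates 1, 2 and 3 and at −3.64, −4.05 and −4.04 on the control arrays. Its array order was the same as that of Penk, and so were those of Kcnk3, Cpt2 and Cyp2s1 (Spearman rho of 1). The changes were smaller than that of Penk, from −0.34 for Cyp2s1 to −0.98 for Ghrl, and Cpt2, Cyp2s1 and Gng5 did not pass the test. The 5 lowest were Fbxo3 (−0.997), Rfc1 (−0.996), Plagl2 (−0.995), Anapc4 (−0.995) and Ylpm1 (−0.994).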

How the data were processed

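Hearts of 3 AACO and 3 control samples were read on single-colour (Cy3) Agilent arrays. Per the submitters' processing notes, Agilent Feature Extraction 10.7.1.1 was used; the deposited intensity of each spot is its processed signal, after background correction and before any scaling across arrays, per the file headers. The authors' deposited series matrix holds log2 values with a common median of 6.77 on every array; they correlated with log2 scanner values at r of 0.998 or more, and their normalization is not given in the sources used here. Control and outlier spots were left out and spots of a probe averaged on the log2 scale. The array's 75th percentile was subtracted, probes well above background on at least 3 of 6 arrays were kept (20112), and a gene was its brightest probe (17536 genes). An accession matched the RefSeq symbol table of assembly GRCr8 for 18005 probes; 5148 kept the array's name. The groups were compared by limma 3.58.1 under R 4.3.3 (lmFit and eBayes), two-sided, with p-values adjusted by Benjamini-Hochberg across the genes tested; ± after a difference is its standard error. The fit was tested on simulated data. With 3 arrays per group, the number of arrays limits precision.

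The members and the lists were chosen with earlier results of these data known. Named genes were all members, up to 4 called genes of each pathway list by size of change or else the 2 of smallest adjusted p, and the 5 genes most and least correlated with Penk. Alternatives were other scalings, normexp background correction, the series matrix, other filters, other probe and name rules, another limma setting and leaving out each array. Slide could not be fitted as a block, since each group lay on its own slide.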

Additional observations from a re-analysis of the deposited data

How the results depend on the processing

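No paired analysis was possible because the labels give the groups no shared replicate numbers. The Penk difference lay between −3.15 and −2.11 under the 12 alternatives to its value. Its sign could not change in most of them and is not read as support. Every AACO array was below every control array with and without scaling, so neither leaving out 1 array nor dropping the scaling could turn it. The mean over probes repeats the main value, because Penk has 1 probe. The number of genes called, 1975, ran from 256 to 2162 when 1 array was left out and was 5725 without scaling between arrays, where the median of all genes stood at 0.52. The share of rises among called genes was 56.1%, against 95.9% without scaling and 62.6% with spike-in scaling. Falls were the majority with quantile normalization (rises 49.7%), the series matrix (49.6%), normexp correction (49.4%), no filter on dim probes (35.6%), and without AACO replicate 1 (44.1%) or 2 (42.2%). The members called numbered 0 to 1 without 1 array and 2 of 8 with no filter on dim probes, when Pdyn, not above background on any array, was added. The pathway genes called, 10, ran from 1 to 8 without 1 array, and were 16 without scaling (13 higher and 3 lower), 6 with spike-in scaling and 5 with no filter. Without scaling Gnb1 turned from −0.37 to 0.11. Array signal limits Pnoc, Oprk1, Oprm1, Oprl1 and Pdyn, which lay near or in the background.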
